A study of Mus musculus with 6 samples.

Results

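The 45 genes described here make the machinery that prepares, starts and carries out DNA replication, from the origin recognition complex to ribonucleotide reductase. They were taken by symbol from a deposited table of 47729 mouse genes, and all 45 were found. Their messages were read from sequenced total RNA of 2 cell lines, 4T1 and 4TO7, with 3 libraries per line, and values of single libraries are listed in replicate order. Both lines trace to a spontaneous mammary tumour of BALB/c mice and were cultured untreated in DMEM with fetal bovine serum, and no allele, drug or other agent is given for either line. As background, 4T1 spreads from the mammary gland and grows out in distant organs, whereas 4TO7 cells leave the primary tumour but seldom form visible metastases. Each behaviour is represented by a single cell line, so a difference between the lines cannot be told apart from a difference in metastatic behaviour. The labels do not say whether the triplicate cultures were independent. The p-values thus set the difference between the lines against the scatter of these libraries, which may be technical scatter alone.

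As background, replication is split into a licensing step and a firing step. In G1 the origin recognition complex binds DNA and, with Cdc6 and Cdt1, loads the ring of Mcm2 to Mcm7, the inactive form of the replicative helicase. Geminin, encoded by Gmnn, blocks Cdt1 after S phase begins, and the Cdc7-Dbf4 kinase together with cyclin-dependent kinase lets Cdc45 and the GINS complex join the ring and start unwinding. Many of these genes are transcribed around the G1/S transition under E2F factors, so their messages are commonly read as a mark of proliferating cells.

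Depth was 33605566 to 39072639 reads per library, and 4TO7 replicate 2 was the shallowest. On log2 values across genes, the correlation between 4TO7 libraries ranged from 0.978 to 0.993, and between 4T1 libraries from 0.988 to 0.99. These ranges do not show which library differs. Replicate 2 of 4TO7 is given apart by design, and the counts over the 45 genes and over each list are given with and without it. As a check of the labelled cell type, the summed level of 5 epithelial markers was 144848 to 160504 normalised counts in 4T1 and 25823 to 42451 in 4TO7, and that of 3 mesenchymal markers was 208594 to 231767 and 115700 to 152862, with Cdh2 at 0. In 4TO7 the epithelial sum was carried by Krt8 and Krt18. Epcam was at 15433 to 19060 in 4T1 and 15.7 to 33.8 in 4TO7. Cdh1 was at 17314 to 21548 and 139 to 221, and Krt19 at 3899 to 6115 and 0 to 1.99. Vim overlapped between the lines, at 102459 to 118139 in 4T1 and 87695 to 106948 in 4TO7, whereas Fn1 did not. The part of these markers in the results on replication genes was not tested. Markers of cells that a culture should lack were near 0: 6 leukocyte markers summed to at most 42.5 normalised counts, 4 endothelial markers to at most 18.2, 3 erythroid markers to at most 2.10 and 2 adipocyte markers to at most 3.98.

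The replication genes were higher in 4T1 for the most part. All 45 passed the filter on low values (a normalised count of at least 10 in at least 3 libraries), and 23 were higher in 4T1 at an adjusted p under 0.05 in limma, against a background of 25.1% of the 14276 genes tested. A further 2, Orc3 and Cdc7, were higher in 4TO7, against a background of 23.9%, and 20 did not pass, so 25 passed in either direction against a background of 49.0%. A normalised count is a gene's read count divided by a factor that corrects for library depth, and a log2 fold change is the mean log2 value in 4T1 minus that in 4TO7. The median log2 fold change over the 45 genes was 0.46, against 0.03 over all genes tested, and 38 of the 45 values were above 0. Without 4TO7 replicate 2 the counts were 31 and 2, against backgrounds of 29.2% and 27.3% (56.5% in either direction), and the median was 0.66 against 0.04. In the authors' deposited table, 22 of these genes passed as higher in 4T1 and 3 as higher in 4TO7, against backgrounds of 19.4% and 19.7% of its 19556 genes with an adjusted p. Because RNA was taken from whole cultures, fewer cells in S phase and less RNA of these genes per cell cannot be told apart.

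**Figure D1:**
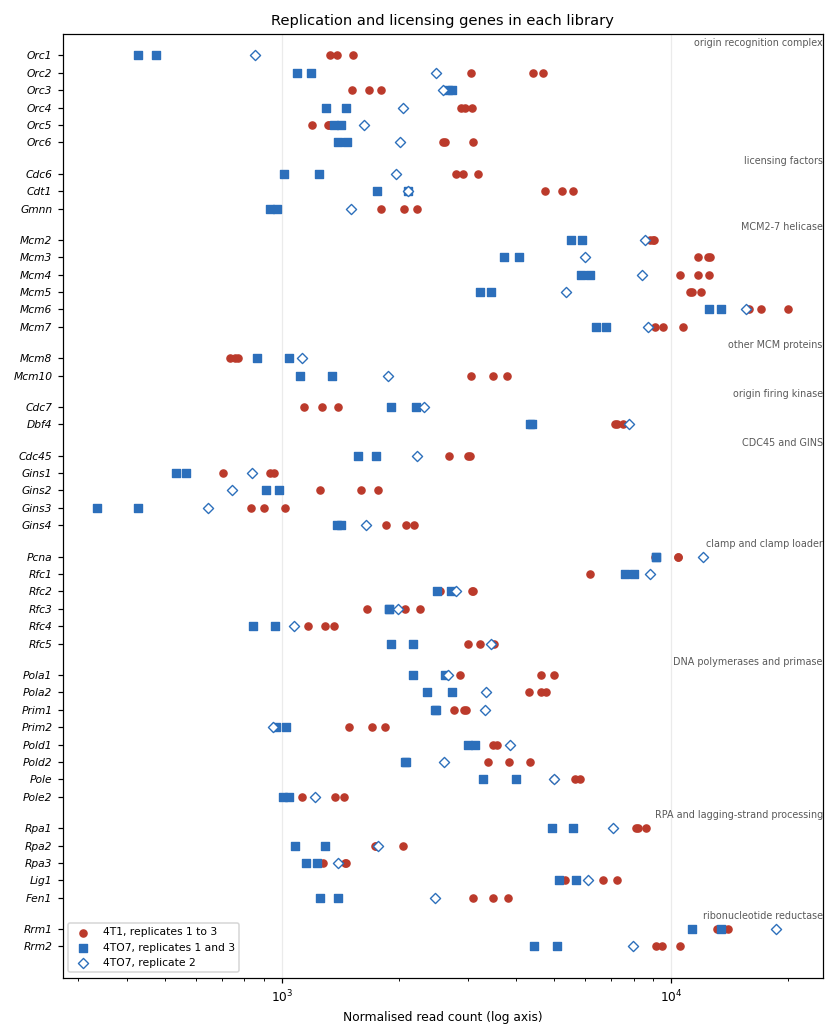
Normalised read count (log axis) of each of the 45 genes in the 6 libraries, grouped by role; red circles are the 3 4T1 libraries, filled blue squares 4TO7 replicates 1 and 3, and open blue diamonds 4TO7 replicate 2. For Mcm3, Mcm5, Cdt1 and Mcm10 the red circles lie to the right of every blue mark, for Orc3 and Cdc7 to the left, and for most genes the open diamond lies to the right of both filled squares.

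Letters of the kind that E2F factors are known to bind were found around the starts of many of these genes. Promoter windows from RefSeq (build GRCm38.p6, 250 bases before to 50 after the annotated start) were matched for 37 of the 45. The motif TTTGGCG was searched on both strands together with its variant TTTCGCG and with the further variant TTTCCCG, and matches may overlap. Some genes have more than 1 window, and a gene was counted when any of its windows held a match. That was so for 21 of 37 genes (56.8%), against 1725 of the 27025 genes in the table (6.38%), and by window for 21 of 46 (45.7%) against 5.58%. For every motif here, the background was not limited to genes that passed the filter on low values, which all 45 did. No share over tested genes alone is given, so the contrast cannot be credited to replication genes in particular. Of the 21 genes, 12 had a match wholly before the start (32.4% of 37, against 5.27% of all genes), 2 had one across the start and no other before it, and 7 had matches after the start alone. Among the genes higher in 4T1, 13 of 18 had a match anywhere in a window (72.2%), against 7 of 17 among those that did not pass (41.2%). The former had more windows, and by window the shares were 13 of 24 (54.2%) and 7 of 19 (36.8%). CCAAT was found for 24 of 37 genes (64.9%), against 41.1% of all genes, and TTTGAA, a motif of genes that peak in mitosis, in 7 of 37 (18.9%), against 20.2%. CCAAT too was more frequent among genes higher in 4T1, 14 of 18 (77.8%), than among those that did not pass, 10 of 17 (58.8%). The 250 bases before the start are printed for 4 genes chosen to show matched letters beside each outcome, with E2F-type matches in capitals. Mcm5 had the largest fold change in favour of 4T1, Mcm6 has 3 matches but did not pass the test, Orc1 is the origin subunit whose human counterpart is a known E2F target, and Orc3 was higher in 4TO7.
Mcm5, chr8:75109259-75109508, plus strand: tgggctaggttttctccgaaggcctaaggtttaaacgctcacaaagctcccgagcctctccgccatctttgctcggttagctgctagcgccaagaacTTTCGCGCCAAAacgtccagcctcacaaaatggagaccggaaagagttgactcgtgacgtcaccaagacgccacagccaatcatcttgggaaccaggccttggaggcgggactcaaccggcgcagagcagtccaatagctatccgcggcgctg
Mcm6, chr1:128359706-128359955, minus strand: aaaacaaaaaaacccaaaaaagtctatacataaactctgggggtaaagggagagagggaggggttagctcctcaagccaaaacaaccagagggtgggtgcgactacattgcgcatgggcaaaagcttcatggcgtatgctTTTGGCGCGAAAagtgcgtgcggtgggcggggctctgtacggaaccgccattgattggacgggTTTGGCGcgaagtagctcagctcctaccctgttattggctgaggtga
Orc1, chr4:108579204-108579453, plus strand: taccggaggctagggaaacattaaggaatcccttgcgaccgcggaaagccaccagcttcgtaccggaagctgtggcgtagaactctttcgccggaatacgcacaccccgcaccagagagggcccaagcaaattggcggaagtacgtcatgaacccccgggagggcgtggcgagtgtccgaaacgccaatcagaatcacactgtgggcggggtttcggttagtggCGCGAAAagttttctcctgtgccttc
Orc3, chr4:34614943-34615192, minus strand: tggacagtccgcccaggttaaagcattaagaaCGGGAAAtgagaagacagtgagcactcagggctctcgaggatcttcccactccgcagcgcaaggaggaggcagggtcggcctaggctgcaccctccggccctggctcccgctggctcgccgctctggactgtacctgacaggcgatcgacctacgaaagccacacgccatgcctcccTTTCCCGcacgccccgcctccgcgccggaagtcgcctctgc
In Mcm5 the matches begin 153 and 148 bases before the start and overlap, in Mcm6 they begin 110, 105 and 47 bases before it, in Orc1 26 bases and in Orc3 218 and 41 bases before it. Matched letters were thus present in a gene higher in 4T1, in one that did not pass and in one higher in 4TO7. A match describes the letters only and is not evidence of binding.

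The origin recognition complex, the ring that marks origins and recruits the helicase, did not move as a unit. Of its 6 subunit genes, Orc1, Orc2, Orc4 and Orc6 were higher in 4T1, Orc3 was higher in 4TO7 and Orc5 did not pass. Orc1, whose human counterpart rises and falls through the cell cycle, was at 1388, 1523 and 1331 normalised counts in 4T1 and at 427, 854 and 476 in 4TO7. Every 4T1 library was above every 4TO7 library, and 4TO7 replicate 2 was the highest of its line. Its mean was 1414 ± 98.7 against 586 ± 234 (SD, n = 3 per line), a log2 fold change of 1.34 ± 0.26 (SE; limma adjusted p = 0.00319). Orc2, which pairs with Orc3 in the core of the complex, had the larger fold change, with 4049 ± 864 in 4T1 and 1591 ± 779 in 4TO7 (log2 fold change 1.43 ± 0.32, limma adjusted p = 0.00636). Orc4, an ATPase-family subunit, had 2971 ± 103 and 1600 ± 392 normalised counts, a 1.86-fold difference of the line means. Orc6, the smallest subunit, had 2769 ± 285 and 1627 ± 338, a 1.70-fold difference.

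Orc3 ran the other way. This gene, on chromosome 4 at 34570796 to 34614944 (GRCm38), had 1673, 1515 and 1801 normalised counts in 4T1 and 2664, 2590 and 2734 in 4TO7. The lines did not overlap, and here 4TO7 replicate 2 lay close to, and slightly below, the other 4TO7 libraries. The mean in 4TO7 was 1.60 times that in 4T1 (log2 fold change -0.68 ± 0.13 SE, limma adjusted p = 0.00306). The start of Orc3 lies 13 bases from the start of Rars2, a mitochondrial arginyl-tRNA synthetase gene on the opposite strand, which was also higher in 4TO7, at mean normalised counts of 858 in 4T1 and 1262 in 4TO7 (log2 fold change -0.56, limma adjusted p = 0.00885). Rars2 was chosen after its values were seen. The table's sources do not state whether counting used strand, so reads where a gene's span meets that of a neighbour cannot be assigned with certainty. Orc5, also of the ATPase family, missed the threshold with 1277 ± 70.8 normalised counts in 4T1 and 1468 ± 138 in 4TO7 (limma adjusted p = 0.268), although its 4TO7 libraries were all above its 4T1 libraries. The lines were separated in the same way in 4TO7's favour for 4 genes in all, against a background of 28.7%, and in 4T1's favour for 26, against 29.8%.

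The licensing factors were all higher in 4T1. Cdt1, which brings the helicase ring to the origin and lies on chromosome 8 at 122568015 to 122573554 (GRCm38), was at 5229, 4731 and 5579 normalised counts in 4T1 and at 1752, 2111 and 2108 in 4TO7. The lines were far apart and 4TO7 replicate 2 was level with replicate 3. Its log2 fold change was 1.38 ± 0.14 (SE) with a limma adjusted p of 8.83e-05, the smallest among the 45 genes, and without 4TO7 replicate 2 it was 1.43. Cdc6, the ATPase that loads the ring together with the origin complex, was at 3196, 2925 and 2795 in 4T1 and at 1015, 1964 and 1245 in 4TO7. The lines did not overlap, although 4TO7 replicate 2 lay well above the other 4TO7 libraries. Its log2 fold change was 1.13 ± 0.23 (SE, limma adjusted p = 0.00445), and 1.40 without that library. Gmnn, the inhibitor of Cdt1, was at 2059, 1798 and 2217 in 4T1 and at 971, 1504 and 932 in 4TO7. Activator and inhibitor thus both stood higher in 4T1, with a log2 fold change of 0.86 ± 0.21 (SE, limma adjusted p = 0.00893) for Gmnn.

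The ratio of Cdt1 to Gmnn within a library, which does not depend on the library's scaling factor, was 2.54, 2.63 and 2.52 in 4T1 and 1.80, 1.40 and 2.26 in 4TO7. Every 4T1 ratio was above every 4TO7 ratio, and 4TO7 replicate 2 had the lowest. The means were 2.56 ± 0.0601 and 1.82 ± 0.430 (SD, n = 3), and the exact two-sided permutation test gave p = 0.1, the smallest that 3 against 3 libraries allows (adjusted p = 0.15 over 6 ratios compared).

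The subunits of the helicase ring, which work in equal numbers, were called unequally, and differences between subunits were not tested. Mcm3, Mcm4, Mcm5 and Mcm7 were higher in 4T1, and Mcm2 and Mcm6 did not pass with all libraries and passed without 4TO7 replicate 2. Mcm5 had 11942, 11286 and 11158 normalised counts in 4T1 and 3233, 5360 and 3447 in 4TO7. Mcm3 had 11740, 12606 and 12428 in 4T1 and 3726, 5997 and 4075 in 4TO7. For both genes the lowest 4T1 library was far above the highest 4TO7 library, which was replicate 2. Mcm5, on chromosome 8 at 75109569 to 75128439 (GRCm38), averaged 11462 ± 420 against 4013 ± 1171, a log2 fold change of 1.55 ± 0.20 (SE, limma adjusted p = 0.000346). Mcm3, on chromosome 1 at 20802968 to 20820312, averaged 12258 ± 458 against 4599 ± 1223, a log2 fold change of 1.45 (limma adjusted p = 0.000377). As known from yeast, Mcm5 sits between Mcm3 and Mcm2 in the ring, and DNA enters between Mcm5 and Mcm2.

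Mcm4, Mcm7, Mcm2 and Mcm6 had smaller fold changes than Mcm5 and Mcm3. Mcm4 had 10521, 11748 and 12477 normalised counts in 4T1 and 5879, 8401 and 6191 in 4TO7, with no overlap (log2 fold change 0.78 ± 0.16 SE, limma adjusted p = 0.0052). Mcm7 had 9522, 9076 and 10708 in 4T1 and 6425, 8724 and 6814 in 4TO7, where replicate 2 came close to the lowest 4T1 library. Its call was near the threshold (log2 fold change 0.43 ± 0.15 SE, limma adjusted p = 0.0479) and was lost under 11 of 17 alternative settings, among them each fit without 1 library other than 4TO7 replicate 2 (adjusted p = 0.0739 to 0.18). In the authors' deposited table Mcm7 missed the threshold, with an adjusted p of 0.0602. Mcm2 had 8956, 8837 and 9054 in 4T1 and 5913, 8583 and 5526 in 4TO7. The 4T1 libraries of Mcm2 were tightly grouped and 4TO7 replicate 2 was nearly level with them, so the log2 fold change of 0.45 ± 0.18 (SE) did not pass with it (limma adjusted p = 0.0637), whereas without it the value was 0.65 (adjusted p = 0.00198). Mcm6 had 15871, 17011 and 19981 in 4T1 and 12477, 15598 and 13439 in 4TO7. Mcm6 showed the narrowest difference of the ring genes, a log2 fold change of 0.35 ± 0.14 (SE, limma adjusted p = 0.0769), and 0.44 without 4TO7 replicate 2 (adjusted p = 0.0265).

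Divided by the length of the principal transcript, which allows levels to be compared between genes, the 6 ring genes spanned a 2.28-fold range in 4T1, from 2655 normalised counts per kb for Mcm2 to 6055 for Mcm6. In 4TO7 the range was 4.01-fold, from 1187 for Mcm5 to 4755 for Mcm6. Mcm3 and Mcm5 thus ranked just below Mcm6 in 4T1, at 4044 and 3390.1 normalised counts per kb, and lowest of the ring in 4TO7, at 1517 and 1187. Neither range was tested.

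Of the MCM proteins outside the ring, Mcm10, which helps start unwinding, was higher in 4T1, and Mcm8, which serves in recombination repair with Mcm9, leaned the other way. Mcm10 had 3495, 3795 and 3068 normalised counts in 4T1 and 1114, 1877 and 1348 in 4TO7. The lines did not overlap (log2 fold change 1.28 ± 0.20 SE, limma adjusted p = 0.00121). The ratio of Mcm10 to Mcm2 was 0.386 ± 0.0455 in 4T1 and 0.217 ± 0.0278 in 4TO7 (SD, n = 3), with no overlap and an exact permutation p of 0.1. Mcm8 averaged 754 ± 17.9 in 4T1 and 1011 ± 136 in 4TO7, all 4TO7 libraries above all 4T1 libraries, and missed the threshold (log2 fold change -0.41 ± 0.16 SE, limma adjusted p = 0.0556). With equal totals per library, with TMM scaling and in edgeR and DESeq2 on recovered reads it passed as higher in 4TO7, at adjusted p-values of 0.0188, 0.0445, 0.0436 and 0.0225, and in the authors' deposited table its adjusted p was 0.0415.

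Of the subunits of the kinase that fires licensed origins, Cdc7 was higher in 4TO7 and Dbf4 did not pass with all libraries. Cdc7, the catalytic subunit, encoded on chromosome 5 at 106964322 to 106984432 (GRCm38), had 1265, 1395 and 1139 normalised counts in 4T1 and 2211, 2321 and 1902 in 4TO7. Every 4TO7 library was above every 4T1 library, and the mean was 1.69 times higher in 4TO7 (log2 fold change -0.76 ± 0.15 SE, limma adjusted p = 0.00339). Dbf4, the regulatory subunit that activates Cdc7, had 7171, 7511 and 7263 in 4T1 and 4328, 7771 and 4401 in 4TO7. Replicate 2 of 4TO7 was above every 4T1 library, while the other 4TO7 libraries were far below them. With all libraries Dbf4 did not pass (log2 fold change 0.47 ± 0.22 SE, limma adjusted p = 0.116), and without 4TO7 replicate 2 it was higher in 4T1 (0.74, adjusted p = 0.000907). The ratio of Dbf4 to Cdc7 was 5.67, 5.38 and 6.38 in 4T1 and 1.96, 3.35 and 2.31 in 4TO7. The ratios did not overlap even with replicate 2, and averaged 5.81 ± 0.510 against 2.54 ± 0.722 (SD, n = 3; log2 difference 1.23, exact permutation p = 0.1, adjusted p = 0.15).

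The helicase activators, Cdc45 and the GINS genes, leaned toward 4T1, and 4 of the 5 passed. Cdc45, which joins the ring to form the active helicase, averaged 2911 ± 190 normalised counts in 4T1 and 1844 ± 334 in 4TO7 (log2 fold change 0.67 ± 0.16 SE, limma adjusted p = 0.00895). Gins2 had 1596, 1252 and 1766 in 4T1 and 983, 746 and 908 in 4TO7. It was one of the few genes for which 4TO7 replicate 2 was the lowest library, and the lines did not overlap (log2 fold change 0.80 ± 0.18 SE, limma adjusted p = 0.00727). Gins3 averaged 918 ± 94.1 and 469 ± 159, a 1.96-fold difference of the line means. Gins4 averaged 2040.1 ± 175 and 1485 ± 142 and passed with an adjusted p of 0.027 in limma, a call lost under 6 of 17 settings, namely equal totals, quantile normalisation and the fits without 4T1 replicate 1 or 3 or without 4TO7 replicate 1 or 3 (adjusted p = 0.059 to 0.11). Gins1 averaged 864 ± 138 and 645 ± 166 and did not pass (limma adjusted p = 0.131), although it passed without 4TO7 replicate 2 (adjusted p = 0.0164).

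Of the 6 genes for the sliding clamp and its loader, 0 passed in limma with all libraries, 1 had an unadjusted p under 0.05 (Rfc4), and 0 passed in edgeR and 1 in DESeq2. Their median log2 fold change was 0.08. Pcna, the clamp that tethers polymerases to DNA, had 10387, 9108 and 10404 normalised counts in 4T1 and 9124, 12053 and 9135 in 4TO7. Replicate 2 of 4TO7 was the highest of the 6 libraries, and the lines overlapped. The log2 fold change was -0.01 ± 0.15 (SE, limma adjusted p = 0.963), and 0.12 without that library (adjusted p = 0.434). The pseudogene Pcna-ps2 was listed at 133 to 206 normalised counts and Pcna-ps1 at 0, and reads that match both Pcna and a copy were not measured. Of the loader subunits, Rfc4 had 1286, 1165 and 1358 in 4T1 and 959.9, 1073 and 841 in 4TO7. Its lines did not overlap but it missed the threshold (log2 fold change 0.41 ± 0.15 SE, limma adjusted p = 0.054). Rfc5 averaged 3245 ± 249 and 2507 ± 823 with replicate 2 inside the 4T1 range, and Rfc1, the large subunit, averaged 7192 ± 872 and 8143 ± 605. Rfc2 and Rfc3 had log2 fold changes of 0.12 and 0.04. Without 4TO7 replicate 2, Rfc4 and Rfc5 passed as higher in 4T1, with adjusted p-values of 0.0223 and 0.00349.

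Among the polymerase and primase genes, 4 of 8 were higher in 4T1 and the median log2 fold change was 0.57. Prim2, the regulatory subunit of primase, had 1708, 1483 and 1845 normalised counts in 4T1 and 964, 951 and 1027 in 4TO7. The 4TO7 libraries were tightly grouped below 4T1, and replicate 2 did not stand apart (log2 fold change 0.77 ± 0.14 SE, limma adjusted p = 0.0027). Prim1, the catalytic subunit of the same enzyme, averaged 2889.8 ± 109 and 2761 ± 493 and did not pass (log2 fold change 0.08 ± 0.15 SE, limma adjusted p = 0.695). Pola2, the accessory subunit of polymerase alpha, averaged 4576 ± 232 and 2816 ± 499, a 1.62-fold difference. Pola1, its catalytic subunit, was spread widely within 4T1, at 2861, 4628 and 5006, and its call (limma adjusted p = 0.0276) was lost without 4T1 replicate 2 or 3 and without 4TO7 replicate 1 or 3 (adjusted p = 0.0532 to 0.102). Of the polymerase delta subunits, Pold2, an accessory subunit, averaged 3847 ± 481 and 2249.8 ± 304 (limma adjusted p = 0.004), and Pold1, the catalytic subunit, 3367 ± 275 and 3329.7 ± 459 (limma adjusted p = 0.912). Differences between subunits of an enzyme were not tested here. Pole, the catalytic subunit of the leading-strand polymerase, did not pass with all libraries (log2 fold change 0.44, limma adjusted p = 0.0641) and passed without 4TO7 replicate 2 (0.60, adjusted p = 0.00772). Pole2, its second subunit, did not pass in either fit.

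Of the 5 genes for single-strand binding and lagging-strand processing, Fen1 and Rpa1 were higher in 4T1. Fen1, the nuclease that trims Okazaki fragment flaps, had 3807, 3489 and 3097 normalised counts in 4T1 and 1254, 2471 and 1396 in 4TO7. The lines did not overlap, and 4TO7 replicate 2 lay between them (log2 fold change 1.08 ± 0.25 SE, limma adjusted p = 0.00756). Rpa1, the large subunit of the single-strand binding complex, averaged 8319 ± 272 and 5867 ± 1095 and passed (limma adjusted p = 0.0234), but not when any single library other than 4TO7 replicate 2 was left out (adjusted p = 0.0578 to 0.102). Rpa2, the middle subunit, missed the threshold with all libraries (limma adjusted p = 0.0956) and passed without 4TO7 replicate 2 (0.0081). Rpa3, the small subunit, and Lig1, which seals the fragments, did not pass, with log2 fold changes of 0.15 and 0.18.

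Of the subunits of ribonucleotide reductase, which makes deoxynucleotides, Rrm2 was higher in 4T1 and Rrm1 did not pass. Rrm2, the subunit whose level limits the enzyme in S phase, had 10536, 9447 and 9123 normalised counts in 4T1 and 4451, 7959 and 5075 in 4TO7. It was higher in 4T1 without overlap (log2 fold change 0.78 ± 0.21 SE, limma adjusted p = 0.0165), and the call was lost when 4T1 replicate 1, 4TO7 replicate 1 or 4TO7 replicate 3 was left out (adjusted p = 0.0636, 0.061 and 0.0554). Rrm1, the catalytic subunit, had 13143, 13687 and 13953 in 4T1 and 11336, 18573 and 13399.8 in 4TO7. The lines overlapped and 4TO7 replicate 2 was by far the highest library (log2 fold change -0.06 ± 0.18 SE, limma adjusted p = 0.816). The ratio of Rrm2 to Rrm1 was 0.802, 0.690 and 0.654 in 4T1 and 0.393, 0.429 and 0.379 in 4TO7. Replicate 2 did not stand apart in this ratio, and the means of 0.715 ± 0.0770 and 0.400 ± 0.0257 did not overlap by library (log2 difference 0.83, exact permutation p = 0.1). By contrast, the ratio of Orc1 to Orc2 was 0.358 ± 0.0663 and 0.379 ± 0.0488 (exact permutation p = 0.5), and that of Rfc1 to Pcna was 0.726 ± 0.120 and 0.814 ± 0.0750 (p = 0.4), with overlap in both.

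**Figure D2:**
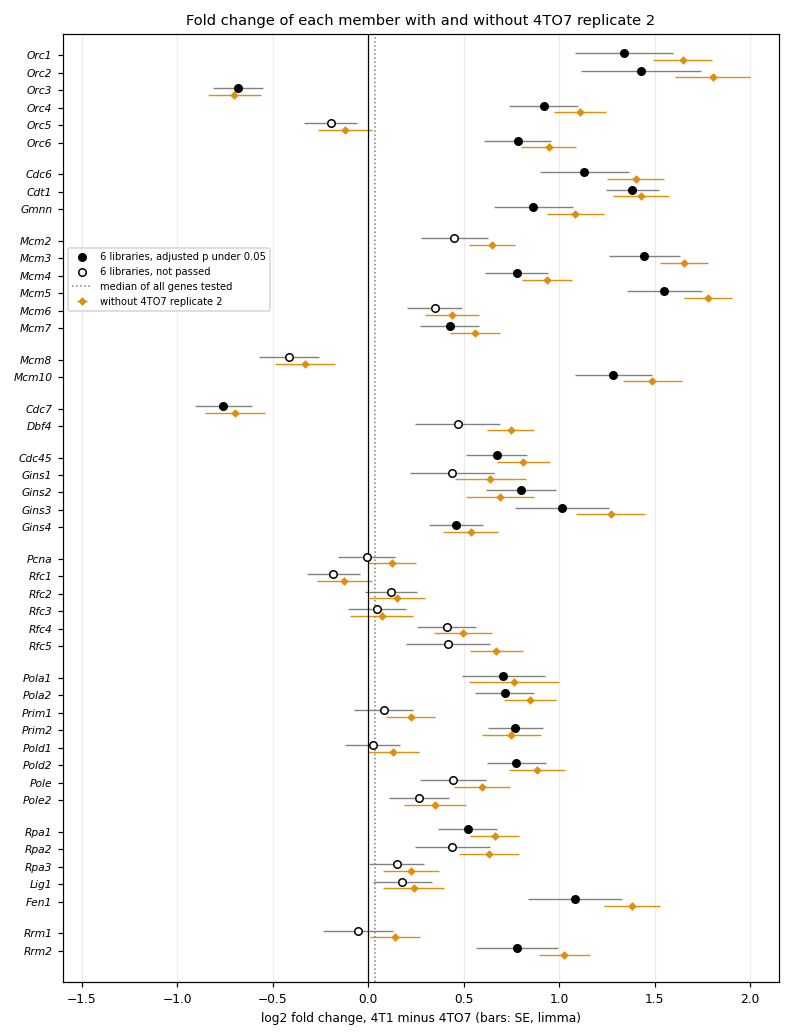
log2 fold change of each of the 45 genes (4T1 minus 4TO7, bars are standard errors from limma) with all 6 libraries and, as orange diamonds, without 4TO7 replicate 2; the dotted line is the median of all genes tested. Values run from -0.76 for Cdc7 to 1.55 for Mcm5 with all libraries, and most orange diamonds lie to the right of the value with all libraries.

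Replicate 2 of 4TO7 carried more of nearly every replication message than the other 4TO7 libraries. It was above both of them for 42 of the 45 genes, against a background of 40.5% of genes tested, and below both for Gins2, Prim2 and Orc3, against a background of 43.5%. Its log2 value exceeded the mean of replicates 1 and 3 by a median of 0.42 over the 45 genes, while the median over all genes tested was -0.01. The difference was highest for Orc2 (1.13), Orc1 (0.92), Fen1 (0.90), Dbf4 (0.83) and Cdc6 (0.80). The 45 genes together took 0.574%, 0.549% and 0.587% of all normalised counts in 4T1 and 0.396%, 0.532% and 0.412% in 4TO7. By this share, 4TO7 replicate 2 was close to the 4T1 libraries and the other 4TO7 libraries were lower. What sets this library apart was not tested.

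**Figure D3:**
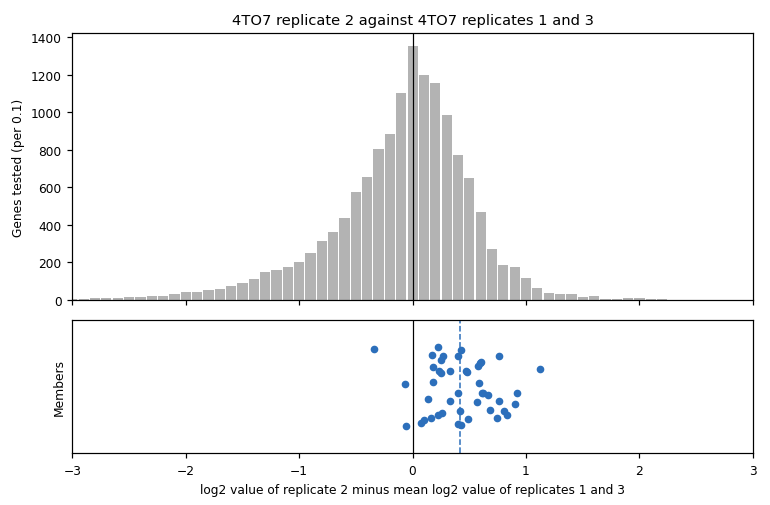
log2 value of 4TO7 replicate 2 minus the mean log2 value of 4TO7 replicates 1 and 3; the upper panel counts all genes tested in steps of 0.1, with 40 genes beyond the plotted range, and each point in the lower panel is 1 of the 45 genes (height has no meaning). The dashed line is the median of the 45 genes, 0.42, and 42 points lie above 0.

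Taken relative to the distance between the lines, the shift was not the same for all of the genes that separate them. For the 31 genes higher in 4T1 without 4TO7 replicate 2, the position of that library was expressed as a percentage of the log2 distance from the mean of 4TO7 replicates 1 and 3 (0%) to the 4T1 mean (100%). The median position was 56.0%, against 24.8% for the 4162 genes higher in 4T1 in that fit and 29.7% for the 3902 genes higher in 4TO7. Dbf4 (112%), Rfc5 (113%), Gins1 (94.5%) and Mcm2 (90.7%) lay at or near the 4T1 level. Mcm3 (37.6%), Mcm5 (38.4%) and Cdt1 (9.47%) stayed nearer to 4TO7, and Prim2 (-8.78%) and Gins2 (-49.4%) lay on the far side of it. These positions depend on the distance between the lines as well as on the shift. The log2 shift was 0.62 for Mcm3 and 0.68 for Mcm5, over distances of 1.65 and 1.78. For Mcm2 and Gins1 the shift was 0.59 and 0.60, over distances of 0.65 and 0.64. Without this library 8 more genes passed as higher in 4T1, namely Mcm2, Mcm6, Dbf4, Gins1, Rfc4, Rfc5, Pole and Rpa2. The 4T1 libraries were wholly above 4TO7 replicates 1 and 3 for 34 of the 45 genes (background 37.8%) and wholly below them for 4 (background 36.1%).

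Of 89 genes in 5 further lists of the S phase and mitotic programme, 30 were higher in 4T1 and 3 in 4TO7, against the backgrounds of 25.1% and 23.9%. Counts without 4TO7 replicate 2 are to be read against 29.2% and 27.3%. Of 24 replication factors outside the 45 genes, 9 were higher in 4T1 in limma and 0 in 4TO7 (2 at an unadjusted p under 0.05, 1 in edgeR and 2 in DESeq2), and the list median was 0.30 on the log2 scale. The count higher in 4T1 was 14 without 4TO7 replicate 2 and 6 without 4T1 replicate 1 or 3 or without 4TO7 replicate 1 or 3. Timeless, a fork protection factor, averaged 2370.0 ± 244 normalised counts in 4T1 and 1108 ± 86.0 in 4TO7 (log2 fold change 1.09, limma adjusted p = 0.000411). Rnaseh2b, a subunit of the nuclease that removes ribonucleotides from DNA, averaged 641 ± 23.6 and 282 ± 19.2 (1.18, adjusted p = 0.000552). Donson, which takes part in helicase assembly, averaged 1649 ± 208 and 834 ± 185, and Pold4, a small polymerase delta subunit, 1636 ± 555 and 841 ± 53.0. The call of Pold4 was lost without 4T1 replicate 1 or 3 and without 4TO7 replicate 1 or 3 (limma adjusted p = 0.0532 to 0.0883). Of 10 chromatin and cohesion factors of the fork, 4 were higher in 4T1 (6 without 4TO7 replicate 2). Asf1b, a histone chaperone, averaged 3594 ± 402 and 1600.2 ± 527 (log2 fold change 1.21, limma adjusted p = 0.00274), and Hells, a chromatin remodeller, 10330.5 ± 1730 and 4667 ± 1720 (1.19, adjusted p = 0.005). The other two were Asf1a, a paralog of Asf1b, and Supt16, a subunit of the histone chaperone FACT. The call of Supt16 was lost when any single library other than 4TO7 replicate 2 was left out (limma adjusted p = 0.053 to 0.14).

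In the list of 12 deoxynucleotide supply genes, 7 were higher in 4T1 in limma and 0 in 4TO7 (also 0 at an unadjusted p under 0.05, in edgeR and in DESeq2), and the list median was 0.59 on the log2 scale. The list was drawn up by topic, and not all of its genes make deoxynucleotides. Samhd1 is among the 7 (log2 fold change 0.46, limma adjusted p = 0.0115), a call lost under 2 of 17 settings. The count higher in 4T1 was 9 without 4TO7 replicate 2, 4 without 4T1 replicate 1 and with equal totals, and 2 without 4TO7 replicate 1 or 3. Tk1, the thymidine kinase of S phase, averaged 6277 ± 559 normalised counts in 4T1 and 3444 ± 821 in 4TO7 (log2 fold change 0.89, limma adjusted p = 0.00425), and Nme1, Dtymk and Dctd, which act in deoxynucleotide phosphorylation and supply, also passed. Those 3 calls were lost without 4T1 replicate 1 and without 4TO7 replicate 1 or 3 (limma adjusted p = 0.0542 to 0.176), and for Nme1 and Dctd also without 4T1 replicate 2 (0.116 and 0.113). Counting scalings, filters and other tests too, the Nme1 call was lost under 11 of 17 settings and the Dctd call under 7. Of the 19 G1/S regulators, 5 were higher in 4T1, near the background of 25.1%, and 3 in 4TO7, below the background of 23.9%, and the median log2 fold change was 0.09. Without 4TO7 replicate 2 the counts were 7 and 3, without 4T1 replicate 2 or 4TO7 replicate 1 or 3 they were 2 and 1, without 4T1 replicate 1 or 3 they were 3 and 2, and with equal totals 3 and 5. E2f2, an activator E2F, averaged 523 ± 6.12 and 180.1 ± 38.4 (log2 fold change 1.55, limma adjusted p = 0.000438), and Skp2, which targets the inhibitor p27 for destruction, averaged 3784 ± 418 and 2119 ± 495 (adjusted p = 0.00552). Cdc25a, a phosphatase that activates cyclin-dependent kinases, also passed (0.0345), but not without 4T1 replicate 1 or 2 or 4TO7 replicate 1 or 3 (0.0925 to 0.124). Rb1, which restrains E2F factors, was higher in 4TO7, at 676 ± 256 against 1443 ± 593 (log2 fold change -1.06, limma adjusted p = 0.0426), a call lost without 4T1 replicate 1 or 2 and without 4TO7 replicate 1 or 3 (0.121 to 0.159). E2f1 and Cdk6, named after their values were seen, were the other two higher in 4TO7. The call of E2f1 was lost without 4T1 replicate 2 or 4TO7 replicate 1 (0.0767 and 0.056), and that of Cdk6 without replicate 3 of either line (0.0514 and 0.0858).

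Of 24 mitosis genes, 5 were higher in 4T1 in limma with all libraries (20.8%), no more than the background share of 25.1%. In 4TO7, 0 were higher (also 0 at an unadjusted p under 0.05, in edgeR and in DESeq2), against a background of 23.9%. The median log2 fold change was 0.25, against 0.03 over all genes tested. Cdk1, the mitotic kinase, averaged 11323 ± 1127 normalised counts in 4T1 and 6088 ± 1232 in 4TO7 (log2 fold change 0.91, limma adjusted p = 0.00263), and Birc5, Kif11 and Cdc20, which act in spindle assembly and mitotic exit, also passed. The call of Cdc20 was lost without 4T1 replicate 1 or 2 and without 4TO7 replicate 1 or 3 (limma adjusted p = 0.0571 to 0.0745). Mki67, the common proliferation marker, averaged 35978 ± 9349 and 35167 ± 5303 (log2 fold change 0.01, adjusted p = 0.98), and the sign of its fold change depended on the scaling. The 24 genes together took 0.596%, 0.675% and 0.684% of normalised counts in 4T1 and 0.567%, 0.710% and 0.616% in 4TO7. By this share the lines overlapped and 4TO7 replicate 2 was the highest library, whereas by the share of the 45 replication genes every 4T1 library was above every 4TO7 library. A summed share weighs abundant genes most, here Top2a, with means of 50313 in 4T1 and 39693 in 4TO7, and Mki67. In 4T1, Mki67 was at 25183, 41352 and 41400 normalised counts. Without 4TO7 replicate 2, 10 mitosis genes were higher in 4T1 (41.7%), above the background of 29.2% in that fit. In 4TO7 replicate 2, 20 of the 24 mitosis genes, 17 of the 19 G1/S regulators and 11 of the 12 deoxynucleotide genes were above both other 4TO7 libraries. So were 21 of the 24 replication factors and 10 of the 10 chromatin and cohesion factors, against a background of 40.5%.

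**Figure D4:**
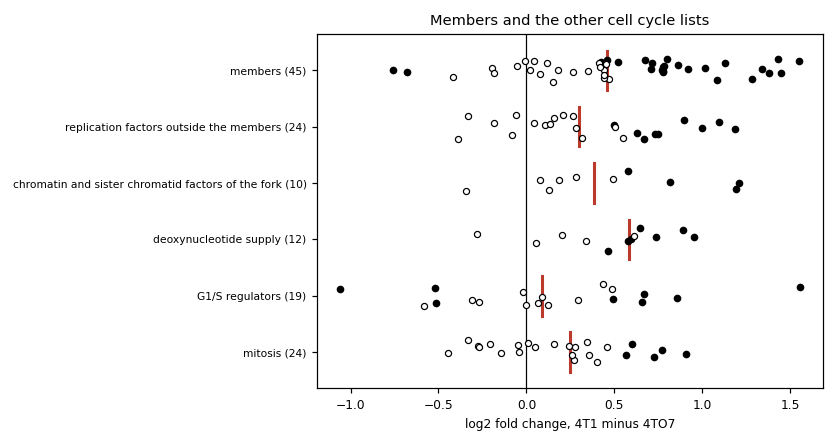
log2 fold change (4T1 minus 4TO7) of each gene in the 45 replication genes and 5 further lists, with list sizes in brackets; filled points passed limma at an adjusted p under 0.05, and red bars are list medians. The medians are 0.46 for the 45 genes, 0.30, 0.39 and 0.59 for the next 3 lists, 0.09 for the G1/S regulators and 0.25 for mitosis.

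The genes were also laid out by chromosome, a property their choice did not use, and no test of this layout was made. All 6 genes on chromosome 8 (Orc6, Cdt1, Mcm5, Gins2, Gins3 and Gins4) were higher in 4T1, with and without 4TO7 replicate 2. Chromosome 8 had the highest median log2 fold change of the 20 chromosomes ranked, 0.49 over 761 genes tested, and 49.1% of its genes were higher in 4T1. Of the 12 genes on chromosomes 5 and 7, only Mcm7 was higher in 4T1 with all libraries. Without 4TO7 replicate 2 there were 4, Dbf4, Rfc5 and Pole being added. These were 4 of 9 on chromosome 5 (background 21.9% in that fit) and 0 of 3 on chromosome 7 (16.7%). With all libraries, chromosome 7 had the lowest median, -0.30 over 1105 genes, and chromosome 5 had -0.13 over 957 genes. In that fit 12.6% and 16.6% of their genes were higher in 4T1, so 1 of 12 is near the background of these chromosomes. Without 4TO7 replicate 2, chromosome 5 was above its background. The other chromosomes were mixed. On chromosomes 19 and 11, which ranked 2 and 5, 2 of 2 and 3 of 3 were higher in 4T1 (background 44.7% and 30.6%). On chromosomes 16 and 1, which ranked 4 and 6, 2 of 3 and 3 of 4 were (32.6% and 31.3%). On chromosomes 4 and 6, which ranked 17 and 18, 1 of 3 and 0 of 2 were (15.1% and 15.3%). Chromosomes 12, 2 and 13 ranked 12, 13 and 14, with medians of -0.03, -0.03 and -0.06. There 1 of 2, 2 of 5 and 1 of 1 were higher in 4T1 (23.4%, 24.7% and 21.6%). Some genes went against the median of their chromosome. Pola1 was higher in 4T1 on chromosome X, which ranked 19 with a median of -0.25. Prim1 did not pass on chromosome 10, which ranked 3 with a median of 0.34. Copy number was not measured here, and its part in these values was not tested.

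Genes were next compared with those close by. For each gene, the median log2 fold change of other tested genes within 1 Mb was taken. Over the 23 genes higher in 4T1 the median of these neighbour values was 0.37, and 19 were above 0. For all tested genes higher in 4T1 it was 0.19, with 68.5% above 0. Over the 20 genes that did not pass it was -0.26 with 5 above 0, against 0.01 and 50.6% for all genes that did not pass, and for Orc3 and Cdc7 it was -0.32. Without 4TO7 replicate 2 it was 0.30 with 20 above 0 over the 31 genes higher in 4T1, and -0.29 with 3 above 0 over the 12 that did not pass. No values over all genes are given for that fit, so these counts have no background to be read against. Across the 45 genes the correlation of a gene's own value with its neighbours' was r = 0.52 (Spearman rho 0.54), and across the 14148 tested genes that have a neighbour r was 0.16 (rho 0.28). Genes in a region share their neighbours and all genes share the 6 libraries, so these are descriptions only. Orc1, Orc4, Mcm7 and Rrm2 were higher in 4T1 among neighbours that were not (neighbour medians -0.26, -0.59, -0.39 and -0.63), and Prim1 did not pass among neighbours with a median of 0.49.

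**Figure D5:**
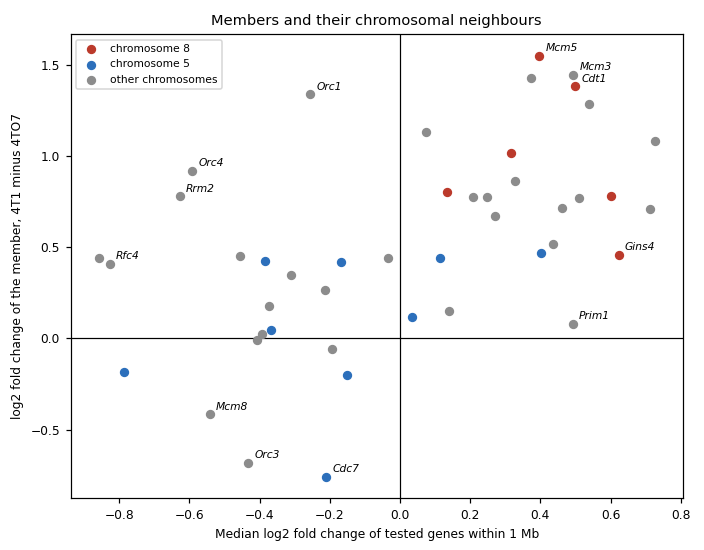
log2 fold change of each of the 45 genes (vertical axis, 4T1 minus 4TO7) against the median log2 fold change of other tested genes within 1 Mb (horizontal axis). Of the 23 genes higher in 4T1, 19 lie to the right of 0, and Orc1, Orc4, Mcm7 and Rrm2 are the 4 to the left.

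At the closest range, 14 of the genes start within 1000 bases of a protein-coding gene on the opposite strand. Among the 8 of these that were higher in 4T1, the neighbour was higher in 4T1 for 2 (Vps35 beside Orc6 and Tmem258 beside Fen1), higher in 4TO7 for 3 (Mbd5 beside Orc4, Ap4m1 beside Mcm7 and Smyd4 beside Rpa1) and did not pass for 3. Mbd5 had mean normalised counts of 747 in 4T1 and 1573 in 4TO7 while Orc4 was higher in 4T1, so these neighbours differed in opposite directions. The neighbours were named after their values were seen. The annotated span of 13 of the 45 genes, 8 of them called (background 49.0%), overlaps that of another tested gene, so some reads may belong to the partner.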

How the data were processed

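RNA from 6 libraries was analysed from 1 deposited table. Per the submitters' processing notes, STAR 2.5, featureCounts 1.5 and DESeq2 were used with build GRCm38; annotation release and strand setting are not given in the sources used here. Per the file headers, the sample columns hold a normalised signal that the authors made from gene read counts, and the numbers show 1 scaling factor for each library: 100% of values were whole multiples of 1 read (tolerance 1e-06), so reads could be recovered. The authors' deposited comparison also holds log2 fold changes, a test score, p-values and adjusted p-values. Values were tested on log2(value + 1), a scale that understates changes of low genes, with limma 3.58.1 in R 4.3.3 (group only, trend, robust, two-sided). Benjamini-Hochberg adjustment ran over the 14276 genes with at least 10 in at least 3 libraries. Ratios of line means are stated as folds. Ratios within a library were compared by exact permutation. Whether the replicate numbers pair the samples was not settled. Deviations from the line means gave same-number r of -0.01, 0.27 and 0.33, and r of -0.39 to 0.27 for other numbers. For 4TO7 replicates 2 and 3 the same-number 4T1 library had the highest r, but not for replicate 1. The main fit therefore had no block, and a fit with it is given among the alternatives. The genes and lists were chosen with earlier results of these data known. Values in every library are given for the gene of each role with the smallest adjusted p, those higher in 4TO7 and a set of core genes; from each further list up to 4 called genes with the largest fold change were named, and Mki67. Alternatives changed the pseudocount, filter, scaling, variance model, block and libraries, and ran edgeR 4.0.16 and DESeq2 1.42.0 on recovered reads. The tests were checked on simulated counts.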

Additional observations from a re-analysis of the deposited data

How the results depend on the processing

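Of the 25 called genes, 20 kept their call under all 17 alternative settings and none reversed; the others were Mcm7, Gins4, Pola1, Rpa1 and Rrm2. The number higher in 4T1 was 20 to 24 under other pseudocounts, filters, scalings, variance models and count tests, and 18 (without 4TO7 replicate 1 or 3) to 31 (without 4TO7 replicate 2) when 1 library was left out. The median log2 fold change then ranged from 0.40 to 0.66. With equal totals per library the median of all genes moved by -0.13, and that of the 45 genes stayed 0.42 above it. With the replicate number as a block, 25 were higher in 4T1 and 2 in 4TO7, Mcm2 (adjusted p = 0.0437) and Pole (0.0282) being added.

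For the 89 genes of the further lists, the number higher in 4T1 was 30, and 17 (without 4TO7 replicate 1 or 3) to 46 (without 4TO7 replicate 2) when 1 library was left out. The number higher in 4TO7 was 3, with 1 to 3 when 1 library was left out, 9 with equal totals, 9 with quantile normalisation, 6 with the replicate block, 5 in edgeR and 6 in DESeq2. Of these 89 genes, 17 of the 33 called kept their call under all settings and 0 changed sign, and 20 of the 56 not called changed sign under some setting. Among the 45 genes and Mki67, the log2 fold changes that changed sign belonged to genes that did not pass. With equal totals they were -0.012 for Rfc2, -0.085 for Rfc3, -0.049 for Prim1, -0.11 for Pold1 and -0.12 for Mki67. With quantile normalisation they were -0.033 for Rfc3, -0.0013 for Prim1, -0.063 for Pold1 and -0.18 for Mki67. Pold1 and Mki67 were -0.015 and -0.030 with TMM and -0.021 and -0.0083 in edgeR. When 1 library was left out, values ran from -0.077 to 0.12 for Pcna, -0.053 to 0.17 for Rfc3, -0.048 to 0.13 for Pold1, -0.22 to 0.14 for Rrm1 and -0.12 to 0.25 for Mki67, and the log2 difference of the Orc1/Orc2 ratio from -0.24 to 0.014. The causes were not tested. The 3 libraries per line limit exact tests to p = 0.1.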
